A study of Mus musculus with 24 samples.

Results

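The potassium channel family was read here as all genes whose symbol on the array begins with Kcn, the shared prefix of the mouse genes for potassium channel pores and for the proteins that bind and modify them. The arrays carried 173 probes for 88 such symbols. A gene counted as measured when a probe was detected (detection p under 0.05) on at least 6 of 24 arrays, and its brightest such probe then stood for it. That left 64 members with 95 probes, among 11439 named genes measured in all. All encode channel subunits apart from Kcnrg, a soluble regulator of channel assembly, and Kcnq1ot1, a noncoding RNA transcribed from the Kcnq1 locus.

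The tissues came from 12 naive littermate SJL/JOrlCrl mice, an inbred strain used in work on autoimmune inflammation of the brain, at 10 weeks of age. Frontal cortex and cerebellum were taken from each of 6 males and 6 females, which gave 4 groups of 6 arrays. No animal was treated, and no group carried a transgene or a mutation. The design set out to find transcripts of the female cerebellum, by asking which transcripts differ between the sexes in a brain region that is prone to disease and in one that is not.

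Potassium channels let potassium ions cross the cell membrane, and thereby hold neurons at rest, end the action potential and set the interval to the next one. Voltage-gated channels open on depolarisation, inward rectifiers and tandem-pore channels carry current near rest, and other channels open with intracellular calcium or sodium. Modifier and auxiliary subunits form no working channel alone and change where and how their partner pores open. Neurons of the cerebellum and of the cortex are known to draw on different sets of these subunits.

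Hybridisation signals were similar across arrays, with a median signal of 69.3 to 75.2 intensity units and 18099 to 19927 of 45281 probes detected per array. The bead-to-bead standard error of a member's signal had a median of 3.88 to 5.52% per array. Over the kept probes, correlations within a group were 0.983 to 0.995, and none between tissues exceeded 0.934. The dissections matched their labels by most defining markers. All 9 measured granule cell markers and 6 of 7 Purkinje cell markers were higher in cerebellum (medians of 3.85 and 1.91 on the log2 scale), and 10 of 11 cortical excitatory neuron markers were lower (median -4.24). The exceptions were Foxp2, which was lower in cerebellum (-0.52), and Neurod2, which was higher (0.76). Striatal markers reached differing levels on the cortex arrays, and choroid plexus markers on the cerebellum arrays, as given below. Values are log2 intensities after background correction and quantile normalisation, and levels of different probes are not compared with each other.

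The first comparison asked which members differ between cerebellum and frontal cortex. Differences are cerebellum minus frontal cortex, averaged over the sexes, ± SE with 12 arrays per tissue. They were tested with limma across 21113 probes with Benjamini-Hochberg adjustment at 0.05. Of the 64 members, 50 differed (78.1%), 22 higher and 28 lower in cerebellum. Of all named genes 70.5% differed, 37.6% higher and 32.9% lower. The median difference of the members was -0.08, against 0.03 for all named genes, so the family as a whole lay near the middle. Its members spread widely around that middle, from -4.68 (Kcnf1) to 4.43 (Kcng4). A smaller set of 21 members (32.8%) passed with a difference of at least 1, which is at least 2-fold, against a background of 13.9%. Of these, 7 were higher in cerebellum (background 5.98%) and 14 were lower (background 7.96%). That split moved with the background correction. In the values the authors normalised, 14 members passed with a difference of at least 1, 7 higher and 7 lower (backgrounds 3.60% and 5.01%). The counts were again 7 and 7 without background correction, and 7 and 8 with the background fitted by maximum likelihood and an offset of 50. Sizes given below hold for the correction used here. Where a difference of at least 1 was over 1.5 times larger on the log2 scale than in the authors' values, the difference in those values stands beside it. It is also given for Kcng4 and Kcnf1. In 30 of the 64 members the 12 cerebellum arrays and the 12 cortex arrays did not overlap at all. The background was 3583 of 11439 named genes (31.3%). Of the 50 members that passed, 34 had the same direction in each of the 12 animals (68.0%), against a background of 61.5% of the named genes that passed. In whole tissue, fewer cells of a type that uses a channel and less of its RNA per cell cannot be told apart.

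Tags of unstated meaning in the labels divide every group into replicates 1 and 2, here label batch a, and the other 4, here label batch b. Within either batch alone 47 members passed, against 50 over both.

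**Figure D1:**
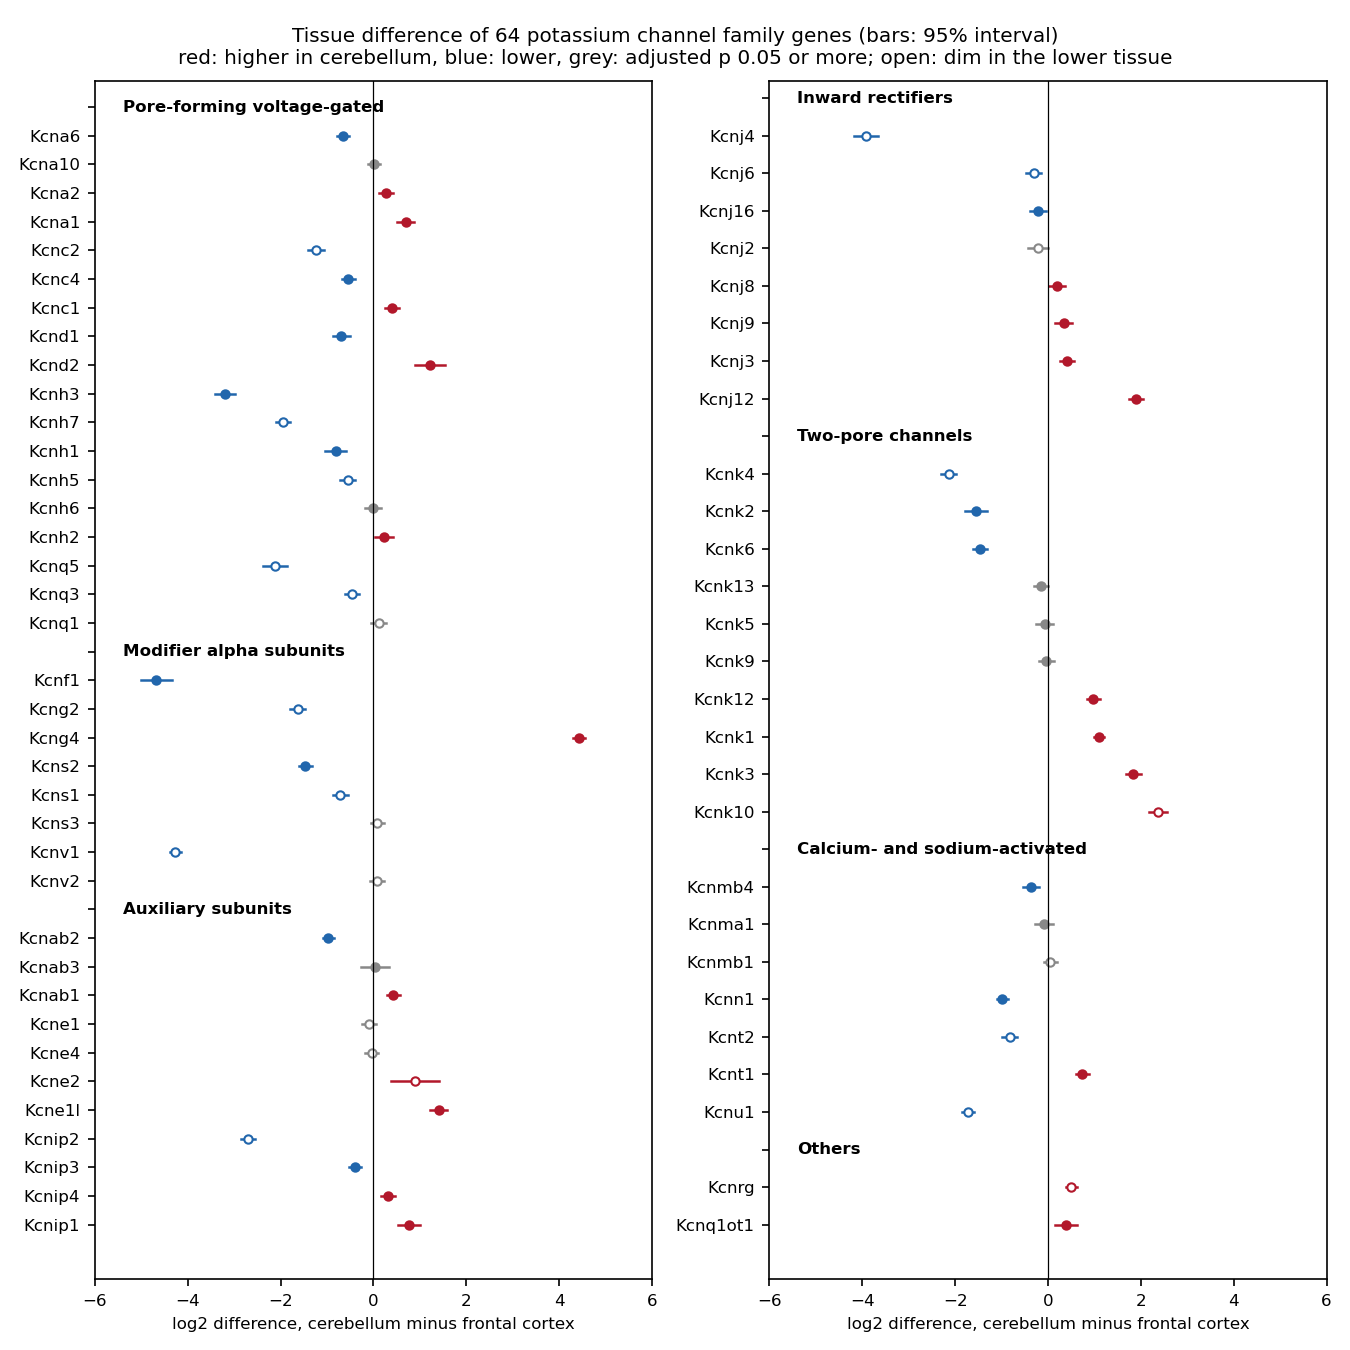
Difference of each of the 64 members (log2 scale, cerebellum minus frontal cortex, averaged over the sexes), with bars for the 95% interval and the members grouped by role. Red points passed as higher in cerebellum, blue as lower and grey did not pass; open points were detected on 6 or fewer of the 12 arrays of their lower tissue. Kcng4 at 4.43 and Kcnf1 at -4.68 are the extremes, and both are modifier subunits.

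By detection, 39 members were seen on more than 6 of 12 arrays of each tissue. Another 14 were detected so in frontal cortex alone, 6 in cerebellum alone and 5 in neither. Detection in 1 tissue alone goes with the direction of a difference, so no count of calls is given by class of detection. For a member detected on 6 or fewer of 12 arrays of its lower tissue, the fold is a lower bound under this background correction. It is taken against the higher of the probe's own level and the dimmest detected level on each array, which lay between 4.67 and 4.81.

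The most divided members were modifier alpha subunits, which join other voltage-gated pores, those of the Kcnb group in particular, and alter their gating. Of the 10 on the array 8 were measured, and 1 was higher in cerebellum, 5 were lower and 2 did not pass, with a median of -1.09. Kcng4 measured 5.26, 5.50 and 5.83 in male frontal cortex, 5.29, 5.52 and 5.77 in female frontal cortex, 9.85, 9.97 and 10.05 in male cerebellum and 9.77, 9.93 and 10.06 in female cerebellum, where each triplet gives the lowest, the median and the highest of 6 arrays. All 12 cerebellum arrays stood far above all 12 cortex arrays, with a difference of 4.43 ± 0.07 or 21.5-fold (adjusted p = 1.8e-27). In the authors' values the Kcng4 difference was 3.43, or 10.78-fold. Kcnf1 went the other way and measured 9.27, 9.62 and 10.05 in male frontal cortex, 9.38, 9.76 and 10.00 in female frontal cortex, 4.45, 4.67 and 6.10 in male cerebellum and 4.55, 4.94 and 6.10 in female cerebellum. Its cortex arrays were all above its cerebellum arrays, and the difference of -4.68 ± 0.16 was 25.6-fold (adjusted p = 1.5e-19). Kcnf1 was detected on 7 of 12 cerebellum arrays, and its difference in the authors' values was -3.40, or 10.55-fold. A cerebellum array of each sex stood above the others for Kcnf1, as described further on.

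Kcnv1 was detected on none of the 12 cerebellum arrays and on every cortex array, and measured 8.36, 8.54 and 8.80 in male frontal cortex, 8.61, 8.74 and 8.87 in female frontal cortex, 4.25, 4.38 and 4.68 in male cerebellum and 4.27, 4.30 and 4.58 in female cerebellum. The tissues were far apart and each was narrow, with a difference of -4.26 ± 0.06 and a level at least 15.2-fold higher in cortex (adjusted p = 7.8e-28). The difference was -2.78, or 6.86-fold, in the authors' values. Kcng2 measured 5.80, 6.17 and 6.49 in male frontal cortex, 5.79, 6.10 and 6.33 in female frontal cortex, 4.31, 4.48 and 4.73 in male cerebellum and 4.27, 4.38 and 4.67 in female cerebellum, and was at least 2.57-fold lower in cerebellum (-1.63 ± 0.08, and -0.79 in the authors' values). Kcns2 was detected on every array of both tissues and measured 6.49, 6.62 and 6.89 in male frontal cortex, 6.41, 6.79 and 6.84 in female frontal cortex, 4.99, 5.32 and 5.49 in male cerebellum and 4.87, 5.14 and 5.32 in female cerebellum. It was 2.76-fold lower in cerebellum (-1.47 ± 0.07, and -0.81 in the authors' values), again without overlap. Kcns1, detected on 1 of 12 cerebellum arrays, was lower as well (-0.71 ± 0.08, at least 1.45-fold). Kcns3 measured 4.47, 4.60 and 4.88 in male frontal cortex, 4.40, 4.66 and 4.83 in female frontal cortex, 4.63, 4.71 and 5.03 in male cerebellum and 4.51, 4.63 and 5.06 in female cerebellum, and Kcnv2 measured 4.41, 4.49 and 4.82 in male frontal cortex, 4.47, 4.65 and 4.87 in female frontal cortex, 4.46, 4.65 and 4.85 in male cerebellum and 4.52, 4.60 and 5.10 in female cerebellum. Both lay near the detection limit in all groups, and neither passed (0.08 ± 0.07, adjusted p = 0.32, and 0.08 ± 0.07, adjusted p = 0.37).

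**Figure D2:**
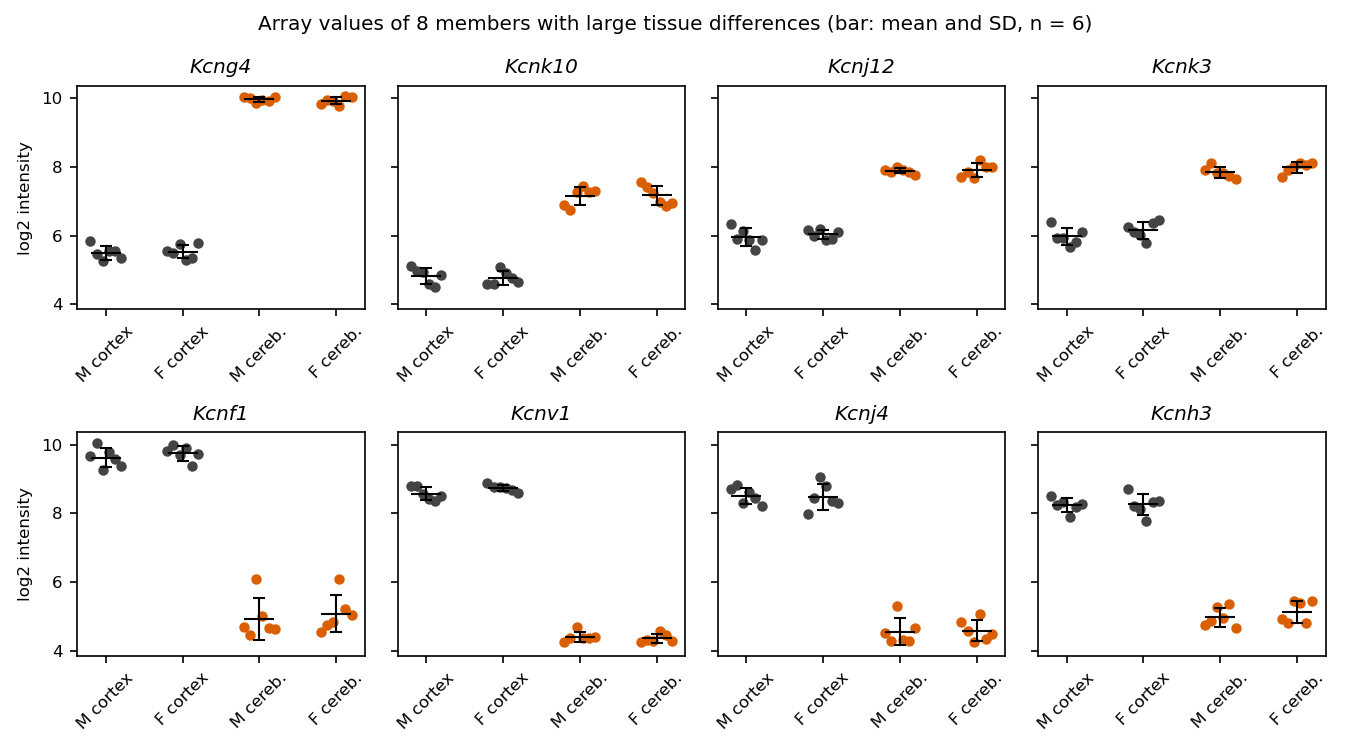
Log2 intensity of 8 members on each of the 24 arrays, by group (M, male; F, female; cereb., cerebellum), with points for arrays and bars for the mean and SD of 6. The upper row holds members higher in cerebellum and the lower row members lower in it; in none of the 8 do the tissues overlap, and in Kcnf1 and Kcnj4 a few cerebellum arrays rise above the rest.

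Promoters are shown for the members with the largest differences in each direction among those with a single RefSeq promoter entry, so that the sequences beside opposite tissue patterns can be compared. Of the 64 members, 48 had an entry and 34 had only 1. Each stretch runs 5′ to 3′ along the gene from 250 bases before its start to 50 after, in the GRCm38.p6 build. Capitals mark an E-box (CANNTG) or a GC box (GGGCGG on either strand), and an overlap of boxes is one run of capitals. Kcng4 and Kcnj12 were higher in cerebellum, and Kcnf1 and Kcnj4 were higher in frontal cortex. Kcng4 lies at chr8:119635631-119635930 on the minus strand, Kcnj12 at chr11:61065554-61065853 on the plus strand, Kcnf1 at chr12:17176839-17177138 on the minus strand and Kcnj4 at chr15:79505192-79505491 on the minus strand.
Kcng4: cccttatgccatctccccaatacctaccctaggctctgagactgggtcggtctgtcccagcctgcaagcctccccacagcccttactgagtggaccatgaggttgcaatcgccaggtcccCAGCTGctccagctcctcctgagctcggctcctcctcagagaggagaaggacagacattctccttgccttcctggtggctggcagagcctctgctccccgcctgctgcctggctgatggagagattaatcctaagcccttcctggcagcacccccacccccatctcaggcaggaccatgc
Kcnj12: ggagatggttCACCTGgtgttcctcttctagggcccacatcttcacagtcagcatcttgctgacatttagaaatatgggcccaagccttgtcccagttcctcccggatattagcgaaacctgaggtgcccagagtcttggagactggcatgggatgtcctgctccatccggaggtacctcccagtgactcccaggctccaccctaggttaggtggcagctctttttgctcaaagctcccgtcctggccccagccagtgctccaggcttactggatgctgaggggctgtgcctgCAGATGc
Kcnf1: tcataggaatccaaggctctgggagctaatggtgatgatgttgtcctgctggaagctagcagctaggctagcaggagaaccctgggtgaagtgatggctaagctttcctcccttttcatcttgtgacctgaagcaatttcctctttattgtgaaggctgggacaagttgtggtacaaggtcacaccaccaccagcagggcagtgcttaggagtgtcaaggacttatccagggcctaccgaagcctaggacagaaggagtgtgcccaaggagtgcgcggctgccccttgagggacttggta
Kcnj4: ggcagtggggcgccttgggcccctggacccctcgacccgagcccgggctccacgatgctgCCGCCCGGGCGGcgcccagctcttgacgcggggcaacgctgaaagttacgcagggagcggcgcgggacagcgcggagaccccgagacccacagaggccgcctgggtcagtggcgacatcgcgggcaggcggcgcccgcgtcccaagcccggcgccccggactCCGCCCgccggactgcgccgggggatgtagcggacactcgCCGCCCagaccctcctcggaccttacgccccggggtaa
Kcng4 held 1 E-box and Kcnj12 held 2, and neither held a GC box. Kcnf1 held neither motif. Kcnj4 held 4 GC boxes and no E-box, and was the richest in G and C (76.0%, against 61.3% in Kcng4, 57.0% in Kcnj12, 53.0% in Kcnf1 and a median of 52.7% over all promoters). An E-box stood in 72.3% of 32851 promoters of this length and in 76.4% of the 72 entries of members, and a GC box in 35.7% and 47.2%. The letters TATAAA stood in 13.6% and 4.17%, and TGACG in 20.8% of both, searched on both strands. None of the 4 printed promoters held TATAAA, and Kcnj4 alone held TGACG, 1 time.

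Of 25 pore-forming voltage-gated genes 18 were measured, and 5 were higher in cerebellum, 10 lower and 3 did not pass, with a median of -0.50. The Kcna genes form low-threshold channels of axons and their terminals. Kcna1 measured 5.92, 6.17 and 6.41 in male frontal cortex, 5.64, 6.08 and 6.29 in female frontal cortex, 6.29, 6.68 and 7.20 in male cerebellum and 6.70, 6.86 and 7.19 in female cerebellum, and passed as higher in cerebellum (0.69 ± 0.09, adjusted p = 1.2e-07) although the highest cortex arrays reached above the lowest cerebellum array. Kcna2 was also higher (0.27 ± 0.07), with overlapping tissues at 8.21 to 8.93 in frontal cortex and 8.47 to 8.99 in cerebellum, and lost its call under median scaling. Kcna6 was lower (-0.66 ± 0.06) with no overlap, at 11.57 to 12.05 in frontal cortex and 10.79 to 11.27 in cerebellum. Kcna10 measured 4.75, 4.95 and 5.04 in male frontal cortex, 4.65, 4.98 and 5.18 in female frontal cortex, 4.91, 4.93 and 5.12 in male cerebellum and 4.62, 4.89 and 5.13 in female cerebellum, which placed all groups at one level (0.02 ± 0.06, adjusted p = 0.85).

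The Kcnc genes form fast channels that let neurons fire at high rates, and all 3 on the array were measured and passed. Kcnc1 measured 9.04, 9.30 and 9.52 in male frontal cortex, 9.17, 9.29 and 9.47 in female frontal cortex, 9.57, 9.68 and 9.95 in male cerebellum and 9.32, 9.70 and 9.92 in female cerebellum, a modest rise in cerebellum of 0.40 ± 0.07 with overlapping arrays. Its other measured probe gave 1.93, so the size of the Kcnc1 difference depends on the probe. Kcnc2 measured 5.59, 5.77 and 6.02 in male frontal cortex, 5.60, 5.89 and 6.20 in female frontal cortex, 4.29, 4.56 and 4.85 in male cerebellum and 4.36, 4.66 and 5.07 in female cerebellum, and was at least 2.1-fold lower in cerebellum (-1.23 ± 0.08, and -0.57 in the authors' values), where it was detected on 2 of 12 arrays. Kcnc4 was lower by a smaller amount (-0.54 ± 0.07) at 10.99 to 11.56 in frontal cortex and 10.46 to 10.88 in cerebellum.

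The Kcnd genes carry the A-type current of dendrites. Kcnd2 measured 8.37, 8.76 and 9.42 in male frontal cortex, 8.14, 8.85 and 9.29 in female frontal cortex, 9.39, 10.24 and 10.50 in male cerebellum and 9.55, 9.92 and 10.60 in female cerebellum. It was 2.34-fold higher in cerebellum (1.22 ± 0.16, adjusted p = 1.1e-07), although 1 cortex array exceeded the lowest cerebellum array. Kcnd1, one of 2 members on the X chromosome, measured 5.47, 5.54 and 5.78 in male frontal cortex, 5.32, 5.67 and 5.75 in female frontal cortex, 4.51, 4.90 and 5.17 in male cerebellum and 4.73, 4.85 and 5.59 in female cerebellum. It passed as lower (-0.69 ± 0.09), with overlap owing to a single female cerebellum array at 5.59.

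Kcnh genes, relatives of the ether-a-go-go channel of flies, gave 4 of 6 measured members lower in cerebellum and 1 higher. Kcnh3 measured 7.91, 8.26 and 8.52 in male frontal cortex, 7.78, 8.28 and 8.72 in female frontal cortex, 4.66, 4.91 and 5.36 in male cerebellum and 4.81, 5.15 and 5.47 in female cerebellum, far apart in every animal, and was 9.14-fold lower in cerebellum (-3.19 ± 0.11, and -2.09 in the authors' values). Kcnh7 was detected on 1 of 12 cerebellum arrays and on all cortex arrays, and was at least 3.13-fold lower (-1.94 ± 0.07, and -0.98 in the authors' values). Its values by group are given with the comparison of the sexes. Kcnh1 was lower too (-0.82 ± 0.11). Kcnh5, detected on 0 of 12 cerebellum arrays, was lower (-0.55 ± 0.08, at least 1.08-fold). Kcnh2, a channel known for its role in repolarising the heart, was slightly higher by its brightest probe (0.22 ± 0.09, adjusted p = 0.041). That call ended in 13 of the 24 fits with 1 array left out and with the animal as a block (adjusted p = 0.052). The other measured probe of Kcnh2, detected on all 24 arrays, gave 0.43 (limma adjusted p = 2.6e-06). Kcnh6 measured 4.81, 5.01 and 5.49 in male frontal cortex, 4.93, 5.22 and 5.49 in female frontal cortex, 4.95, 5.18 and 5.52 in male cerebellum and 4.87, 5.13 and 5.20 in female cerebellum, with no separation between groups (-0.01 ± 0.08, adjusted p = 0.9).

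Kcnq3 and Kcnq5 contribute to the M-current, a slow brake on repeated firing. Kcnq5 measured 5.52, 6.32 and 6.79 in male frontal cortex, 6.14, 6.55 and 7.34 in female frontal cortex, 4.20, 4.30 and 4.35 in male cerebellum and 4.27, 4.34 and 4.48 in female cerebellum, with no cerebellum array detected and with cortex arrays spread over more than 1 log2 unit. It was at least 3.29-fold lower in cerebellum (-2.12 ± 0.12, and -1.13 in the authors' values). Kcnq3 was lower as well (-0.46 ± 0.08, at least 1.2-fold). Kcnq1, best known from heart and epithelia, measured 4.51, 4.73 and 4.88 in male frontal cortex, 4.38, 4.71 and 4.93 in female frontal cortex, 4.61, 4.82 and 5.07 in male cerebellum and 4.51, 4.77 and 5.21 in female cerebellum, near the detection limit in every group (0.11 ± 0.08, adjusted p = 0.25).

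Of 12 auxiliary subunit genes 11 were measured, and 5 were higher in cerebellum, 3 lower and 3 did not pass (median 0.04). The Kcnip genes encode calcium-binding partners of the Kcnd pores, and all 4 passed, in opposite directions. Kcnip2 measured 7.28, 7.42 and 7.54 in male frontal cortex, 7.10, 7.32 and 7.60 in female frontal cortex, 4.50, 4.59 and 4.85 in male cerebellum and 4.50, 4.65 and 5.09 in female cerebellum, and was at least 5.99-fold lower in cerebellum (-2.70 ± 0.07, and -1.53 in the authors' values) with no overlap. Kcnip3 was also lower (-0.40 ± 0.06). Kcnip1 was higher (0.76 ± 0.11), at 4.91 to 5.75 in frontal cortex and 5.53 to 6.46 in cerebellum. Kcnip4 measured 8.25, 8.33 and 8.62 in male frontal cortex, 8.18, 8.55 and 8.86 in female frontal cortex, 8.31, 8.56 and 8.76 in male cerebellum and 8.75, 9.00 and 9.19 in female cerebellum, a small rise in cerebellum (0.31 ± 0.07) with overlap, which lost its call under median scaling.

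The Kcnab genes encode cytoplasmic partners of the Kcna pores. Kcnab2 measured 12.38, 12.50 and 12.79 in male frontal cortex, 12.21, 12.40 and 12.57 in female frontal cortex, 11.38, 11.47 and 11.56 in male cerebellum and 11.23, 11.49 and 11.69 in female cerebellum, and was 1.97-fold lower in cerebellum (-0.98 ± 0.06) with the tissues fully apart. Kcnab1 was higher by its brightest probe (0.42 ± 0.07) and by a second probe of nearly the same brightness (0.42), but lower by its dimmest (-1.21), so no single direction holds for the gene. Kcnab3 measured 5.07, 5.56 and 6.00 in male frontal cortex, 4.57, 5.35 and 6.13 in female frontal cortex, 5.29, 5.50 and 5.83 in male cerebellum and 5.05, 5.39 and 5.92 in female cerebellum, with wide overlap (0.04 ± 0.14, adjusted p = 0.84). The Kcne genes encode small single-pass partners. Kcne1l, on the X chromosome, measured 7.13, 7.23 and 7.36 in male frontal cortex, 6.31, 7.06 and 7.31 in female frontal cortex, 8.18, 8.45 and 8.51 in male cerebellum and 8.22, 8.67 and 8.77 in female cerebellum, and was 2.64-fold higher in cerebellum (1.40 ± 0.09) with no overlap. Kcne4 measured 4.42, 4.67 and 4.83 in male frontal cortex, 4.28, 4.70 and 4.84 in female frontal cortex, 4.56, 4.62 and 4.89 in male cerebellum and 4.36, 4.53 and 4.78 in female cerebellum, a level at which most arrays did not detect it (-0.03 ± 0.07, adjusted p = 0.69). Kcne1 did not pass (-0.09 ± 0.07), and Kcne2 is described with the choroid plexus markers.

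Of 13 inward rectifier genes 8 were measured, and 4 were higher in cerebellum, 3 lower and 1 did not pass (median -0.01). The classic inward rectifiers, which clamp cells near rest, split. Kcnj12 measured 5.57, 5.89 and 6.35 in male frontal cortex, 5.88, 6.05 and 6.20 in female frontal cortex, 7.77, 7.88 and 8.00 in male cerebellum and 7.68, 7.92 and 8.21 in female cerebellum, and was 3.72-fold higher in cerebellum (1.90 ± 0.07, adjusted p = 1.6e-18). Kcnj4 measured 8.20, 8.54 and 8.81 in male frontal cortex, 7.98, 8.40 and 9.05 in female frontal cortex, 4.28, 4.41 and 5.31 in male cerebellum and 4.25, 4.53 and 5.09 in female cerebellum, and was at least 12.9-fold lower (-3.93 ± 0.13, adjusted p = 2.1e-20, and -2.55 in the authors' values). In neither gene did any cortex array meet a cerebellum array. Kcnj2, of the same group, did not pass (-0.21 ± 0.10, adjusted p = 0.082), but did without male cortex replicate 6 (-0.25) or female cerebellum replicate 1 (-0.24).

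The channels gated by G proteins moved by less. Kcnj3 was higher (0.41 ± 0.08), and Kcnj6 was lower (-0.31 ± 0.08, at least 1.13-fold). The Kcnj6 difference was -0.54 within label batch a and -0.19 within label batch b, where it did not pass (adjusted p = 0.052). Kcnj9 was higher by its brightest probe (0.34 ± 0.09), and its other measured probe passed in the opposite direction (-0.22). Kcnj8, the pore of a channel gated by ATP in mural cells of vessels, measured 4.80, 4.98 and 5.21 in male frontal cortex, 4.81, 4.96 and 5.31 in female frontal cortex, 5.02, 5.26 and 5.70 in male cerebellum and 4.65, 5.05 and 5.28 in female cerebellum, with overlap and a borderline call (0.19 ± 0.08, adjusted p = 0.049) that ended in 15 of the 24 fits with 1 array left out and with the animal as a block (adjusted p = 0.065). Markers of endothelial and mural cells gave 4 higher, 1 lower and 5 that did not pass out of 10 in the same comparison, and their part in the Kcnj8 value was not tested. Kcnj16, known as a partner of glial rectifiers, was slightly lower (-0.21 ± 0.08, adjusted p = 0.029), a call that ended in 5 of those fits. Astrocyte and Bergmann glia markers were higher in 8 of 11 measured and lower in 2, and their part in the Kcnj16 value was not tested.

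The tandem-pore genes encode channels of the background current that sets the resting potential, and 10 of 14 were measured. Of these, 4 were higher in cerebellum, 3 were lower and 3 did not pass (median -0.05). Relatives within this group lay at opposite ends. The stretch- and lipid-sensitive channels Kcnk10, Kcnk2 and Kcnk4 are close relatives. Kcnk10 measured 4.52, 4.89 and 5.12 in male frontal cortex, 4.60, 4.70 and 5.10 in female frontal cortex, 6.75, 7.27 and 7.44 in male cerebellum and 6.87, 7.11 and 7.56 in female cerebellum, and was at least 4.91-fold higher in cerebellum (2.36 ± 0.09, and 1.32 in the authors' values). Kcnk4 measured 6.48, 6.86 and 7.03 in male frontal cortex, 6.65, 6.88 and 7.03 in female frontal cortex, 4.28, 4.65 and 4.91 in male cerebellum and 4.45, 4.74 and 4.91 in female cerebellum, and was at least 4.11-fold lower (-2.14 ± 0.08, and -1.14 in the authors' values). Kcnk2 measured 6.56, 6.75 and 7.20 in male frontal cortex, 6.07, 6.56 and 7.13 in female frontal cortex, 4.82, 5.37 and 5.65 in male cerebellum and 4.70, 5.00 and 5.36 in female cerebellum, and was 2.92-fold lower (-1.55 ± 0.11, and -0.85 in the authors' values). The tissues did not overlap in any of these 3 genes.

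The acid-sensitive channel Kcnk3 measured 5.68, 5.93 and 6.40 in male frontal cortex, 5.78, 6.18 and 6.46 in female frontal cortex, 7.63, 7.83 and 8.11 in male cerebellum and 7.69, 8.03 and 8.12 in female cerebellum, and was 3.58-fold higher in cerebellum without overlap (1.84 ± 0.08). Its close relative Kcnk9 measured 4.49, 4.72 and 4.92 in male frontal cortex, 4.59, 5.04 and 5.33 in female frontal cortex, 4.50, 4.79 and 5.09 in male cerebellum and 4.68, 4.83 and 5.09 in female cerebellum, near the detection limit in both tissues, and did not pass (-0.03 ± 0.08, adjusted p = 0.72). Kcnk1 and Kcnk6, a further pair of relatives, passed in opposite directions. Kcnk1 measured 10.93, 11.03 and 11.11 in male frontal cortex, 10.95, 11.06 and 11.20 in female frontal cortex, 11.92, 12.09 and 12.34 in male cerebellum and 12.08, 12.20 and 12.26 in female cerebellum, and was 2.14-fold higher in cerebellum (1.10 ± 0.05). Kcnk6 measured 6.51, 6.66 and 6.94 in male frontal cortex, 6.63, 6.82 and 7.01 in female frontal cortex, 5.19, 5.41 and 5.65 in male cerebellum and 4.72, 5.21 and 5.43 in female cerebellum, and was 2.76-fold lower (-1.46 ± 0.08, and -0.83 in the authors' values). All cerebellum arrays lay on one side of all cortex arrays in both. Kcnk12 was higher (0.97 ± 0.07), at 4.79 to 5.23 in frontal cortex and 5.76 to 6.32 in cerebellum. Kcnk13, a channel known from microglia, did not pass (-0.15 ± 0.08, adjusted p = 0.078), but came past the threshold as lower without male cortex replicate 3 or 6 or female cortex replicate 1 and under median scaling (-0.25, adjusted p = 0.016). All 7 measured microglia markers were lower in cerebellum (median -1.21), and their part in the Kcnk13 value was not tested. Kcnk5 did not pass either (-0.07 ± 0.09).

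Of 11 genes of channels opened by intracellular ions 7 were measured, and 1 was higher in cerebellum, 4 were lower and 2 did not pass (median -0.36). The sodium-activated pair went apart. Kcnt1 measured 6.81, 6.96 and 7.16 in male frontal cortex, 6.73, 6.95 and 7.24 in female frontal cortex, 7.47, 7.71 and 7.95 in male cerebellum and 7.56, 7.72 and 7.84 in female cerebellum, and was 1.67-fold higher in cerebellum (0.74 ± 0.06), with a second probe at 1.49. Kcnt2 measured 5.06, 5.32 and 5.48 in male frontal cortex, 4.89, 5.28 and 5.84 in female frontal cortex, 4.36, 4.44 and 4.63 in male cerebellum and 4.34, 4.45 and 4.64 in female cerebellum, and was at least 1.49-fold lower, with no cerebellum array detected (-0.83 ± 0.08). The tissues did not overlap in either gene. Kcnn1, a calcium-activated channel of small conductance that follows the action potential, was lower (-0.98 ± 0.06), at 6.99 to 7.38 in frontal cortex and 5.96 to 6.35 in cerebellum.

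Kcnma1, the pore of the calcium-activated channel of large conductance, did not pass by its brightest probe (-0.09 ± 0.09, adjusted p = 0.42). A second probe of Kcnma1 did not pass (-0.11), and a dimmer one did (-0.49). The mean of the 3 Kcnma1 probes passed as lower in cerebellum (-0.23, adjusted p = 0.011). Its neuronal beta subunit Kcnmb4 measured 8.34, 8.66 and 8.81 in male frontal cortex, 8.48, 8.71 and 9.15 in female frontal cortex, 8.06, 8.19 and 8.52 in male cerebellum and 8.14, 8.50 and 8.66 in female cerebellum, a small decrease with overlap (-0.36 ± 0.09, adjusted p = 0.0005). Its other measured beta subunit Kcnmb1 measured 4.56, 4.62 and 4.81 in male frontal cortex, 4.56, 4.70 and 4.96 in female frontal cortex, 4.43, 4.76 and 5.09 in male cerebellum and 4.44, 4.76 and 4.86 in female cerebellum and did not pass (0.05 ± 0.07). Kcnu1, known as a channel of sperm, measured 6.10, 6.27 and 6.56 in male frontal cortex, 6.30, 6.39 and 6.61 in female frontal cortex, 4.55, 4.61 and 4.89 in male cerebellum and 4.40, 4.58 and 4.74 in female cerebellum. It was detected on every cortex array and on 2 of 12 cerebellum arrays, and was at least 3.04-fold lower in cerebellum (-1.73 ± 0.06, and -0.85 in the authors' values). Of the 2 genes that encode no subunit, Kcnrg (0.50 ± 0.06, at least 1.32-fold) and the noncoding Kcnq1ot1 (0.39 ± 0.11, adjusted p = 0.0042) were both higher in cerebellum.

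A total of 22 members had 31 further probes that met the detection rule. In 25 of these the further probe and the brightest one both passed in the same direction. The pairs that passed in opposite directions were those of Kcnab1 and Kcnj9, in 3 only 1 of the pair passed (Kcna6, Kcnma1 and Kcnrg), and in 1 neither did. The remaining 24 symbols had no probe that met the rule, with detection on at most 5 of 24 arrays, and give no value. They include Kcna3, Kcna4 and Kcna5, the A-type gene Kcnd3, the small-conductance genes Kcnn2, Kcnn3 and Kcnn4, and 5 inward rectifiers.

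Other genes of the same physiology were followed as 3 lists. Of 36 partners of potassium channels outside the Kcn symbols 31 were measured, and 13 were higher in cerebellum, 10 lower and 8 did not pass (median 0.03). The largest differences were those of Akap5, a kinase anchor at the membrane (-4.03), the calcium-activated channel partner Lrrc38 (1.28), the secreted protein Lgi4 (1.16) and Dpp6, a partner of the Kcnd pores (1.15). Dpp6 was higher in cerebellum together with Kcnd2, Kcnip1 and Kcnip4, whereas Kcnd1, Kcnip2 and Kcnip3 were lower. Of 18 genes of the sodium pump and of potassium transport 10 were measured, with 5 higher, 4 lower and 1 that did not pass. The exchanger Slc24a4 (-1.99), the pump subunit Atp1b2 (1.60), the pump regulator Fxyd7 (-1.55) and the cotransporter Slc12a2 (1.26) led them. Of 29 other channels of neuronal firing 21 were measured, with 6 higher, 9 lower and 6 that did not pass. The sodium channel genes Scn3b (-3.97) and Scn3a (-2.73) and the T-type calcium channel genes Cacna1h (-3.33) and Cacna1g (2.19) led these, and the T-type pair thus went in opposite directions.

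The second comparison asked whether the tissue difference was present in each sex. In females 45 members passed (70.3%), 19 higher and 26 lower, against a background of 60.5% (33.1% higher, 27.4% lower). In males 48 passed (75%), 19 higher and 29 lower, against a background of 60.7% (31.5% higher, 29.1% lower). In both sexes 42 passed with the same direction (65.6%, against a background of 52.8%), and none that passed on average had opposite signs in the sexes. Kcng4, detected on all 24 arrays, differed by 4.39 in females and 4.46 in males. No member passed the test of the difference between the sexes' tissue differences with limma (smallest adjusted p = 0.32), against a background of 0.0787% past the adjusted threshold. At an unadjusted p under 0.05 there were 3 members. No background was worked out for unadjusted p, here or in the comparisons of the sexes below.

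The last comparison, that of the sexes within a tissue, is the one the design names. In cerebellum no member passed with limma, against a background of 0.114%, and 5 had an unadjusted p under 0.05. The smallest adjusted p was 0.14, for Kcnip4. By the brightest probe of Kcnip4, all but 1 of the 6 female cerebellum arrays lay above the highest male one. The difference (female minus male) was 0.42 with a 95% interval of 0.21 to 0.64. The other measured probe of Kcnip4, detected on 8 arrays and with a mean level of 4.68, gave the opposite sign (-0.19, limma adjusted p = 0.99). The other members with an unadjusted p under 0.05 were Kcnip3 (0.18), Kcnj8 (-0.28), Kcnk2 (-0.34) and Kcnk6 (-0.25). The other measured probe of Kcnk2, detected on 13 arrays, also gave the opposite sign to its brightest one (0.08). The 95% interval of the sex difference in cerebellum lay within 0.5 log2 units of 0 in 57 of 64 members. The exceptions were Kcnab3, Kcnd2, Kcne2, Kcnf1, Kcnip4, Kcnj8 and Kcnk2. Kcne2 had the widest interval, 0.73 to either side of a difference of 0.72.

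In frontal cortex 1 member passed, Kcnh7, against a background of 0.157%, and 5 had an unadjusted p under 0.05. Kcnh7 encodes a pore of the ether-a-go-go-related type. It measured 5.76, 6.15 and 6.38 in male frontal cortex, 6.32, 6.60 and 6.93 in female frontal cortex, 4.33, 4.40 and 4.70 in male cerebellum and 4.30, 4.39 and 4.58 in female cerebellum. In cortex the lowest female array lay just inside the male range, and in cerebellum the sexes lay together near the detection limit. The cortex difference was 0.48 ± 0.10 (SE, n = 6 and 6, limma adjusted p = 0.048). It was 0.73 within label batch a and 0.36 within label batch b, and passed in neither alone (adjusted p = 0.242 and 0.241). Its second probe, detected on 9 of 24 arrays and near the detection limit on average, gave 0.20 (adjusted p = 0.61). The call by the brightest probe ended in 19 of the 24 fits with 1 array left out. It held only without male cortex replicate 2 or 6, female cortex replicate 5 or 6, or male cerebellum replicate 4. The 9 striatal markers had mean levels of 6.97 to 8.18 on female cortex arrays and 7.85 to 8.94 on male ones, and the 11 cortical excitatory markers 9.91 to 10.16 and 9.76 to 10.06. None of the striatal or cortical markers passed by sex, all were detected on cortex arrays of both sexes, and their part in the Kcnh7 difference was not tested. The others with an unadjusted p under 0.05 were Kcne1l (-0.28), Kcnk13 (-0.26), Kcnk9 (0.27) and Kcnq5 (0.43), and none of them came below an adjusted p of 0.40. Further probes of Kcnq5, detected on 14 and 11 of 24 arrays, gave 0.05 and -0.004. The interval lay within 0.5 of 0 in 54 of 64 members.

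**Figure D3:**
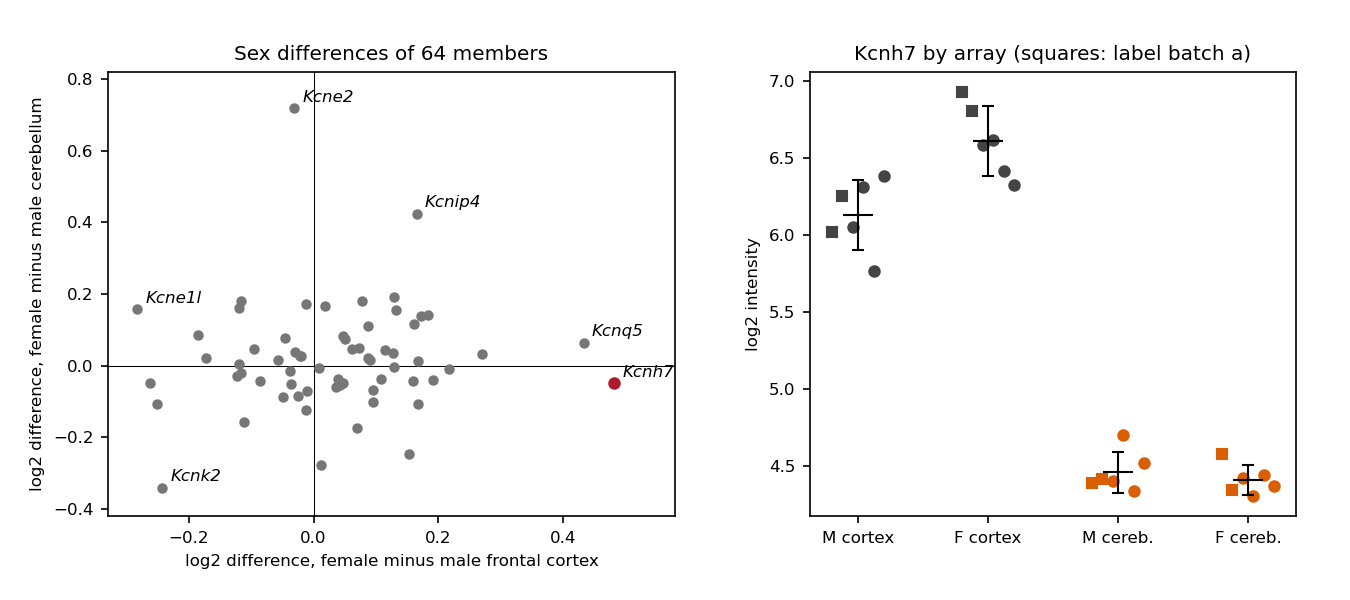
Left, sex difference (log2, female minus male) of each of the 64 members in frontal cortex (horizontal axis) and cerebellum (vertical axis); red marks Kcnh7, the member that passed. Right, Kcnh7 log2 intensity on each array by group with the mean and SD of 6, squares for label batch a and circles for label batch b; the female cortex arrays run from 6.32 to 6.93 and the male ones from 5.76 to 6.38.

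For a few members the levels of markers of other cells are given array by array. Kcne2 encodes a small partner subunit that is abundant in the choroid plexus, the epithelium that makes cerebrospinal fluid. Kcne2 was detected on 7 of 12 cerebellum arrays and on no cortex array, and measured 4.21, 4.32 and 4.67 in male frontal cortex, 4.25, 4.31 and 4.47 in female frontal cortex, 4.29, 4.57 and 6.08 in male cerebellum and 4.34, 5.20 and 7.33 in female cerebellum. Most cerebellum arrays lay near the detection limit and a few, of both sexes, stood well above it. The tissue difference was 0.89 ± 0.25 (at least 1.4-fold, adjusted p = 0.0027), with 1.99 within label batch a and 0.34 within label batch b. Within males the tissue difference of Kcne2 did not pass.

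Of 12 choroid plexus markers 7 were measured, 6 of them higher in cerebellum (median 0.98). Their mean level was 5.82 to 7.66 on male and 5.99 to 8.75 on female cerebellum arrays. On cortex arrays it was 4.83 to 5.47 in males and 4.61 to 5.04 in females, where 1 and 2 of the 7 were detected on no array. The 6 cerebellum arrays with most Kcne2 were also the 6 with the highest marker mean, in the same order. They ran from female replicate 2 (Kcne2 at 7.33, markers at 8.75) and female replicate 1 (6.72 and 8.05) through male replicate 1 (6.08 and 7.66), female replicate 3 (5.51 and 7.31) and male replicate 2 (5.31 and 7.12) to female replicate 5 (4.88 and 6.46). Without the 2 female cerebellum arrays of label batch a, which held the most Kcne2, its tissue difference was 0.53 (limma adjusted p = 0.006). Leaving out the highest arrays of the higher tissue must shrink a difference and also narrows the spread. This fit therefore says nothing about the markers. The part of choroid plexus in the Kcne2 difference was not tested.

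Kcnf1 and Kcnj4 were each highest among cerebellum arrays in male replicate 3 and female replicate 4. Kcnf1 was 6.10 on both, against 4.45 to 5.21 on the other 10. Kcnj4 was 5.31 and 5.09, against at most 4.83. On these 2 arrays the mean of 11 cortical excitatory markers was 7.38 and 7.32, against 6.46 to 6.85 on the others, and 1 of the 11 was detected on no cerebellum array of either sex. Kcnj4 was detected on 3 of 12 cerebellum arrays. Below these 2 arrays its next highest ones ranked 11 and 10 of 12 by marker mean. Kcnj4 lay near or under the detection limit there, so the order of those arrays cannot be read against the markers. Without both arrays the tissue difference was -4.90 for Kcnf1 and -4.05 for Kcnj4. Leaving out the highest arrays of the lower tissue must enlarge a difference, so these 2 values say nothing about the markers. The part of cortical cells in the Kcnf1 and Kcnj4 values was not tested.

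**Figure D4:**
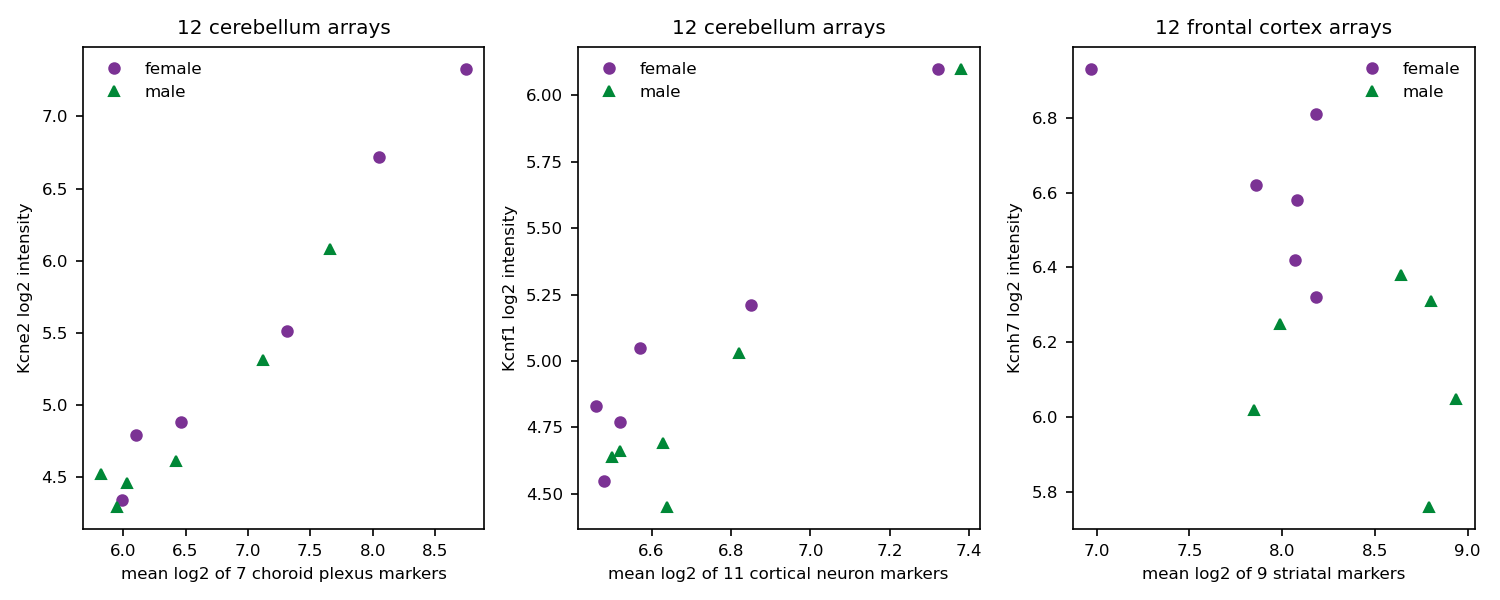
Log2 intensity of a member on each array (vertical axis) against the mean log2 intensity of a marker list on the same array (horizontal axis), with circles for females and triangles for males: Kcne2 and 7 choroid plexus markers in cerebellum, Kcnf1 and 11 cortical excitatory neuron markers in cerebellum, and Kcnh7 and 9 striatal markers in frontal cortex. Kcne2 reaches 7.33 where the choroid markers reach 8.75, and Kcnf1 reaches 6.10 on the 2 arrays with cortical markers above 7.3.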

How the data were processed

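RNA was isolated with Trizol and columns, and its amplified polyadenylated fraction was labelled with biotin and hybridised, per the labels' protocols. The scanner table deposited by the authors gives, per the file headers, an average bead intensity for each probe before normalisation and a detection p-value. It also gives, per the file headers, the number of beads and their standard error, treated here as a score. A second deposited table holds intensity values that the authors normalised between arrays, on a linear scale as the values show, and it was used only as an alternative. Partek is named in the submitters' processing notes without a role, and the genome build is not given in the sources used here.

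From the scanner table, limma 3.58.1 in R 4.3.3 computed log2 values with normexp background correction and quantile normalisation (neqc, offset 16). The fit held 4 group means over 24 arrays, and the number of arrays limits its precision. Gene names came from the platform annotation, in which 34885 probes had 1 symbol, 18 several and 10378 none. The members and lists were chosen with earlier results of these data known. Full values by group are given for members that passed with a difference of at least 1 or passed by sex, and for those with the largest and smallest difference in each subfamily. Kcne2 was added after its values were seen. In each other list the 4 largest differences that passed are named. The labels give same-numbered samples of both tissues the same animal name, which pairs them, and the correlation of their deviations was -0.30 to 0.24 over 12 pairs. The main fit held no block. The fit was tested on simulated data. Alternatives were other background corrections, scalings, filters and probe rules, blocks for animal, batch and array run, and each array left out.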

Additional observations from a re-analysis of the deposited data

Results flagged for a closer look

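Of 256 sets of 6 arrays (64 members in 4 groups), 11 held an array set apart from the other 5 by a gap above Dixon's 95% critical value for 6 samples. That is 4.3%, and chance flags about 1 in 20 groups. Male cerebellum replicate 3 was the highest of its group for Kcnf1 (6.10, others 4.45 to 5.03), Kcnj4 (5.31, others 4.28 to 4.66), Kcnv1 (4.68, others 4.25 to 4.39, detected on none of these arrays) and Kcns3 (5.03, others 4.63 to 4.74). The cortical marker levels of that array are given in the report, and their part was not tested. In the other male groups Kcnc1 reached 9.95 in cerebellum replicate 1 (others 9.57 to 9.71), Kcns1 4.95 in cerebellum replicate 5 (others 4.40 to 4.59) and Kcnn1 7.26 in frontal cortex replicate 5 (others 7.05 to 7.12). In females Kcnd1 was 5.32 in frontal cortex replicate 4 (others 5.64 to 5.75) and 5.59 in cerebellum replicate 3 (others 4.73 to 4.96). Kcnip2 reached 5.09 in female cerebellum replicate 2 (others 4.50 to 4.70) and Kcnj2 5.38 in female frontal cortex replicate 3 (others 4.35 to 4.72).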

How the results depend on the processing

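The count of members that differed by tissue stayed near its value of 50 in all settings run, at 47 to 51 with 1 array left out and 44 to 49 otherwise. It was 48 (20 higher, 28 lower) with the animal as a fixed replicate block, which ended the calls of Kcnh2 and Kcnj8, and 49 with it as a random replicate block, which ended that of Kcnj8. In males alone the fixed block moved the count from 48 to 47 (Kcnk13, -0.26, adjusted p = 0.055). The animal blocks changed no other tissue call. In females the count was 42 to 46 with 1 array left out and 38 to 45 otherwise, and in males 46 to 49 and 38 to 50. Of the 50 tissue calls, 41 held under every setting in which they were tested, and 36 of these were tested in all. The stricter detection filter left 6 of the 50 untested. Median scaling ended those of Kcna2, Kcnh2, Kcnip4 and Kcnj8. The mean of all kept probes ended that of Kcnj9 and turned Kcnab1 to -0.12 on average, -0.089 in females and -0.15 in males. Kcna2 turned to -0.057 in females within label batch a. On average Kcna2, Kcnj8 and Kcnmb4 lost their calls within label batch a alone, and Kcnh2, Kcnj6 and Kcnj16 within label batch b alone. Other choices of background correction turned the sign of no called member, but sizes changed by over 1.5 times in 30 of the 50 without that correction. They did so in 29 with the background fitted by maximum likelihood and an offset of 50, and in 29 in the authors' values.

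With 1 array left out, 3 tissue calls ended. Kcnj16 lost its call without female cortex replicate 2 or 4, male cerebellum replicate 2 or female cerebellum replicate 2 or 3 (adjusted p = 0.0504 to 0.0598). Kcnh2 kept its call only without male cortex replicate 1, 5 or 6, female cortex replicate 1 or 6, male cerebellum replicate 3, 4, 5 or 6 or female cerebellum replicate 1 or 4 (highest adjusted p = 0.0824). Kcnj8 kept its call only without male cortex replicate 1, 2 or 3, female cortex replicate 5, male cerebellum replicate 1, 5 or 6 or female cerebellum replicate 1 or 3 (highest adjusted p = 0.0995).

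The count by sex in frontal cortex moved from 1 to 0 under median scaling, no filter on dim probes, the mean of all kept probes, eBayes with trend and robust, either label batch alone, arrays of that tissue alone, and both settings that were chosen after seeing the data, which left out 2 cerebellum arrays each. With 1 array left out it was 0 to 1. The Kcnh7 difference was 0.41 to 0.54 in those fits (limma adjusted p = 0.0233 to 0.158). By sex in cerebellum the count moved from 0 to 1 within label batch b alone (Kcnip3, 0.38 ± 0.08, limma adjusted p = 0.0406), and it was 0 in the other settings run. Within label batch a the Kcnip3 difference had the opposite sign (-0.21) and did not pass. The interaction count was 0 throughout. Signal over background limits the 14 members detected in frontal cortex alone, and also Kcnk10, Kcne2 and Kcnrg, which were dim in frontal cortex. Their folds are lower bounds under this background correction only. In the authors' values a fold could lie below its bound, as that of Kcnv1 did (6.86-fold).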
